A study of Mus musculus with 6 samples.

Results

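Secreted phospholipases A2 are small enzymes, rich in disulphide bonds, that leave the cell and cleave phospholipids outside it or at its surface. Each cut frees a fatty acid, which may be arachidonic acid, and leaves a lysophospholipid. Cyclooxygenases and lipoxygenases turn free arachidonic acid into prostaglandins and leukotrienes, and in steroid-making cells arachidonic acid handled by the acyl-CoA synthetase ACSL4 is known to support steroid output. The enzymes differ in tissue and in preferred lipid, and the group II and group V genes lie side by side on mouse chromosome 4.

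The 9 mouse genes described here are Pla2g1b, Pla2g2c, Pla2g2d, Pla2g2e, Pla2g2f, Pla2g5, Pla2g10, Pla2g12a and Pla2g12b, of 19505 named genes and 22206 probe sets (the array's unit of measurement, a group of probes for 1 transcript) compared in all. They were measured in whole adrenal glands of female mice aged 2 months, on Affymetrix whole-transcript arrays, 1 per animal. Control animals (n = 3) had the genotype Mst1flox/flox;Mst2flox/flox, and mutant animals (n = 3) the genotype Mst1flox/flox;Mst2flox/flox;Nr5a1-cre, so both groups carried the floxed alleles of the Hippo kinases MST1 and MST2. The Cre driver is that of Nr5a1, a gene of steroid-producing cells, and the question was which transcripts differ when both kinases are to be lost from the adrenal cortex. Controls carried no Cre, so an effect of Cre itself and loss of the kinases cannot be told apart. Cells of the medulla, capsule and vessels are in the sample too, and in a whole gland fewer cells of a type and less RNA per cell cannot be told apart.

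The family was chosen by results of these same arrays, in which Pla2g2f and Pla2g2d were known to be lower in mutants. Its values in that comparison are therefore a description, and a p-value given for a member marks its place in the fit over all probe sets and is no independent support. Each of the 9 genes had a single probe set.

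Median log2 signals of the 6 arrays lay between 6.76 and 6.83. Cortical genes were bright in every array, with Star at 18.32 to 18.46 log2 units and Cyp11b1 at 18.46 to 18.71, and the medullary gene Th at 15.67 to 16.65, so the adrenal label was borne out by its markers. Stk4, which encodes MST1, differed by -0.32 log2 units (SE 0.19) with overlapping groups. Whether its probes read the floxed exons is not stated, so it is no test of the genotype labels. The gene that encodes MST2 was not examined. Background probe sets of the arrays spanned 2.53 to 7.32 log2 units, which serves as a guide to dim genes.

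Of the 9 genes, 3 stood above the background range in all 6 arrays: Pla2g2f, Pla2g2d and Pla2g5. The other 6 lay within it in all 6 arrays. The 3 bright genes are neighbours on chromosome 4, and they were the ones whose groups did not overlap. Pla2g2f and Pla2g2d were lower in every mutant than in any control, and Pla2g5 was higher in every mutant than in any control. Such a separation was seen for 8.36% of all probe sets lower in mutants and 8% higher.

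Because the 3 bright genes lie next to each other and differed between the groups in opposite directions, their promoter windows are shown. Each window runs from 250 bases before to 50 bases after a gene start in RefSeq, build GRCm38.p6, and is written along the gene's own strand. All 9 genes matched the promoter table, with 10 windows, since Pla2g5 has a pair of starts. Capitals mark the motif GGAATG, or its reverse complement, which the TEAD partners of YAP and TAZ are known to bind.
Pla2g2f, chr4:138757549-138757848, minus strand: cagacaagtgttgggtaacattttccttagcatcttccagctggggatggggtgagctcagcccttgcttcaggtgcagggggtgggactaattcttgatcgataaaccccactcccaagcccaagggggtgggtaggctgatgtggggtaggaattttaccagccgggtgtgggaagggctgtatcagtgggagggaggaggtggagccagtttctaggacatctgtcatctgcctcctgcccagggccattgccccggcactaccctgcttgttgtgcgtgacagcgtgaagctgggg
Pla2g2d, chr4:138775485-138775784, plus strand: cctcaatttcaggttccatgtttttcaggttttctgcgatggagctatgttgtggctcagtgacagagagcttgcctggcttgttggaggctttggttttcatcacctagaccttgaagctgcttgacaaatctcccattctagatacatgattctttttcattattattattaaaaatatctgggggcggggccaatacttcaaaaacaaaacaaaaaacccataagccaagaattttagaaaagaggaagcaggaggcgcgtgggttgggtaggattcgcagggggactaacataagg
Pla2g5 outer start, chr4:138863420-138863719, minus strand: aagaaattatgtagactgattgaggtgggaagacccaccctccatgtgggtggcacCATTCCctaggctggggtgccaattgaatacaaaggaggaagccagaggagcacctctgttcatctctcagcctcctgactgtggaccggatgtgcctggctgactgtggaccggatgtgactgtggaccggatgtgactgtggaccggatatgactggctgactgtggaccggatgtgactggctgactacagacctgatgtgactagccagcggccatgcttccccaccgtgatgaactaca
Pla2g5 inner start, chr4:138819208-138819507, minus strand: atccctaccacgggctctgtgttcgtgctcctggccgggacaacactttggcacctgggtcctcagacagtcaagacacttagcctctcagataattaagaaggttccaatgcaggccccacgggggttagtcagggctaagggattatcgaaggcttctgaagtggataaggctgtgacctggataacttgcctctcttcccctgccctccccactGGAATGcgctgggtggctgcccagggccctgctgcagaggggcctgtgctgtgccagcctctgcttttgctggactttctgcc

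GGAATG was searched on both strands and stood once in each Pla2g5 window, in the opposite orientation in the outer window and in the gene's orientation in the inner one. Counted from the start, where -1 is the base just before it, the matches began at -194 in the outer window and -33 in the inner one. The windows of Pla2g2f and Pla2g2d held no match. In all, 4 of the 10 windows held GGAATG, the others being those of Pla2g10 and Pla2g12a, beside 14.7% of all 32851 windows in the table. The motif CAAGGTCA, known to be bound by NR5A1, was found on either strand in 0 of the 10 windows and in 1.56% of all windows. A match of letters is a description and not a binding site.

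Pla2g2f encodes the group IIF enzyme, best known from the epidermis, where keratinocytes secrete it. Its log2 signal was 11.08, 10.64 and 10.55 in controls 1 to 3 and 8.66, 9.23 and 9.03 in mutants 1 to 3. The lowest control thus lay above the highest mutant by more than either group's spread. Group means were 10.76 ± 0.29 and 8.97 ± 0.29 (SD, n = 3 each), a log2 change of -1.78 (SE 0.21, 95% interval -2.27 to -1.30). The measured signal in mutant glands was 3.44-fold lower and still above the range of background probe sets. Mutant 1, at 8.66, lay below 8.87, the 95th percentile of mean signals of the array's intron control probe sets. Whether background limited the fold was not tested. With a limma adjusted p of 0.0357, Pla2g2f fell past the threshold of 0.05 and was number 6 of 22206 probe sets in order of the size of the fall. That call was lost without any 1 of the 6 animals, with log2 changes from -1.62 (without control 1) to -1.91 (without mutant 2) and limma adjusted p of 0.134, 0.13 and 0.0895 without controls 1 to 3 and 0.0841, 0.0962 and 0.0775 without mutants 1 to 3. It was also lost with each array's mean intron control signal as a covariate, taken as a guide to RNA quality. That signal was 5.40 to 5.84 in controls and 5.45 to 5.73 in mutants. The log2 change was then -1.73 (SE 0.20, limma adjusted p = 0.0574), so the estimate itself moved little from -1.78. A covariate is a further term fitted from 6 arrays, and the part of RNA quality in the change was not tested.

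Pla2g2d encodes the group IID enzyme, known from dendritic cells and macrophages of lymphoid tissue, where its lipid products dampen inflammation. Control signals were 10.99, 10.60 and 10.71, and mutant signals 9.70, 9.13 and 9.24. The groups were again apart. Their means were 10.77 ± 0.20 and 9.36 ± 0.30 (SD, n = 3 each), a log2 change of -1.41 (SE 0.20, 95% interval -1.86 to -0.96), or a measured signal 2.66-fold lower in mutants. The limma adjusted p of 0.0529 missed the threshold, and it lay from 0.00733 to 0.263 under 16 alternatives, 5 of which passed. The order of the mutants differed between these enzymes: mutant 1 had the lowest Pla2g2f signal and the highest Pla2g2d signal of its group, whereas control 1 was the highest control for both.

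Pla2g5 encodes the group V enzyme, known from macrophages, heart and fat tissue of obese mice. Control signals were 11.54, 11.52 and 10.29, and mutant signals 12.38, 12.34 and 11.84. Control 3 lay apart from the other controls, yet even the highest control was below the lowest mutant. Means were 11.12 ± 0.72 and 12.19 ± 0.30 (SD, n = 3 each), a log2 change of 1.07 (SE 0.34, 95% interval 0.29 to 1.84) that did not pass (limma adjusted p = 0.34). Without control 3 it was 0.65 (SE 0.21, limma adjusted p = 0.333). The sign of Pla2g5 was thus opposite to that of its neighbours in the same arrays.

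**Figure D1:**
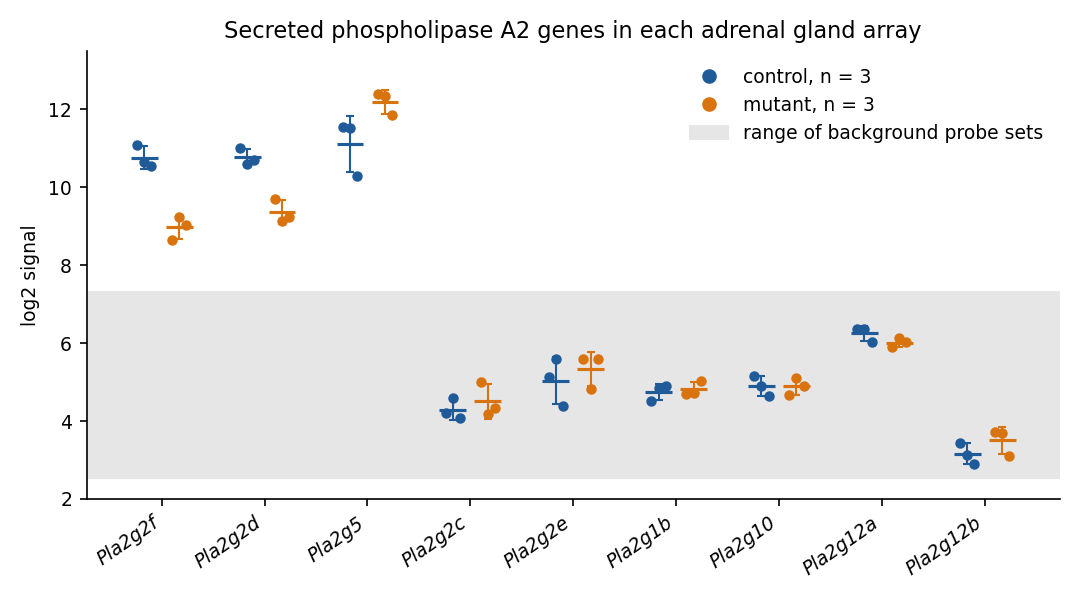
Log2 signal (vertical axis) of the 9 secreted phospholipase A2 genes in each array, with controls in blue, mutants in orange, bars for the mean ± SD of 3 animals and a grey band from 2.53 to 7.32 for background probe sets. Pla2g2f, Pla2g2d and Pla2g5 lie above the band with groups apart, and the other 6 genes lie inside it with overlapping groups.

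The remaining genes had overlapping groups and signals not told apart from background, so their changes bound little about the transcripts themselves. Pla2g2e, a group II gene that fat cells express, measured 5.12, 5.58 and 4.39 in controls and 5.58, 4.83 and 5.59 in mutants. Its log2 change was 0.30 (95% interval -0.44 to 1.05), and -0.02 without control 3. Pla2g2c, known from testis, measured 4.20, 4.58 and 4.07 in controls and 5.002, 4.18 and 4.32 in mutants, a change of 0.22 (95% interval -0.34 to 0.78).

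Outside the cluster, the digestive enzyme gene Pla2g1b, best known from pancreas, had a log2 change of 0.06 (95% interval -0.33 to 0.46) and spanned 4.52 to 5.02 over the 6 arrays. Pla2g10, whose enzyme is potent on phosphatidylcholine and known from gut and sperm, had a change of -0.01 (95% interval -0.44 to 0.42). Pla2g12a, an atypical and widely expressed member, lay above 69.4% of the array's 5222 intron control probe sets and had a change of -0.23 (95% interval -0.60 to 0.14). Pla2g12b, a relative without catalytic activity that takes part in lipoprotein secretion by the liver, was above 5.61% of the intron controls and had a change of 0.35 (95% interval -0.16 to 0.85). Pla2g5, Pla2g2d and Pla2g2f were above 98.4%, 97.3% and 97.0% of them. Limma adjusted p of the 6 dim genes lay from 0.647 to 0.993.

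Across the 9 genes, 5 log2 changes were above 0 and 4 below, with a median of 0.06, beside -0.01 over all 22206 probe sets. Past the threshold 1 was lower, where 0.018% of all probe sets were lower, and 0 were higher, where 0.054% were (0.0721% in either direction). Groups did not overlap for 2 lower genes and 1 higher gene, beside 8.36% of all probe sets lower and 8% higher. Since the family was selected on this comparison, nothing further is read from these counts.

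The position of the bright genes allows a look at genes beside them. In chromosome order, by RefSeq, the named genes on the array run from Fam43b, Mul1, Camk2n1, Vwa5b1 and Ubxn10 through Pla2g2c, Pla2g2f, Pla2g2d, Pla2g5, Pla2g2a and Pla2g2e to Otud3, Rnf186, Tmco4, Htr6 and Nbl1. The 5 genes on each side, with Pla2g2a inside the cluster, had log2 changes from -0.25 (Mul1, a mitochondrial ubiquitin ligase) to 0.20 (Pla2g2a), with a median of -0.04. None of these 11 passed the threshold (smallest limma adjusted p = 0.738), and 0 had an unadjusted p under 0.05, where 10.4% of all probe sets did. Groups did not overlap for 0 of them, beside 8.36% of all probe sets lower and 8% higher. With 11 genes, nothing further is read from these counts. Under each of the 16 alternatives 0 passed as well, though the filter on dim probe sets kept only 5 of the 11. In 7 of the 11 both group means were within the background range, so only Mul1, Camk2n1, Otud3 and Nbl1 give a measured signal above it in at least 1 group. For Camk2n1, an inhibitor of CaM kinase II, the 95% interval of the change was -0.37 to 0.38, and for Nbl1, a secreted antagonist of bone morphogenetic proteins, -0.31 to 0.59. Mul1 had an interval of -0.73 to 0.23 and the deubiquitinase gene Otud3 one of -0.71 to 0.32. The intervals of Mul1, Camk2n1 and Nbl1 do not reach changes as large as those measured for Pla2g2f and Pla2g2d. Otud3, with means of 7.42 in controls and 7.22 in mutants, lay at the top of the background range. A fall of its transcript might therefore not show. An effect shared by the region was not tested.

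**Figure D2:**
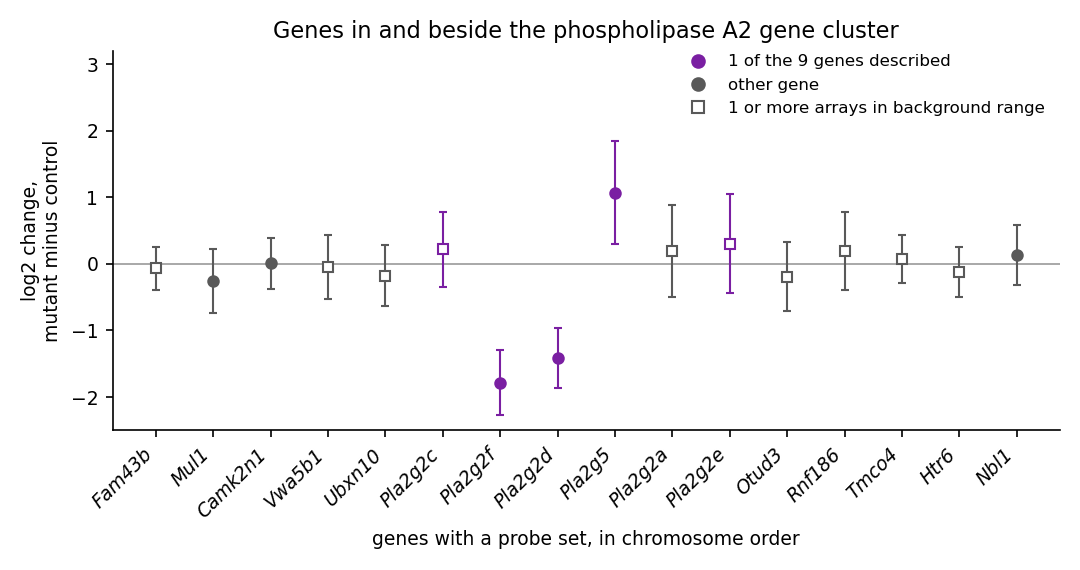
Log2 change, mutant minus control, with its 95% limma interval (vertical axis) for each named gene on the array in and beside the phospholipase A2 cluster, in chromosome order without scale (horizontal axis). Purple marks the genes described here and grey the others, and open squares mark genes with 1 or more arrays in the background range. Pla2g2f (-1.78), Pla2g2d (-1.41) and Pla2g5 (1.07) stand away from 0, and the 11 other genes lie between -0.25 and 0.20.

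Annotated spans overlap within the cluster. Pla2g2a, a transcribed pseudogene in the reference strain, lies within the span of Pla2g5, and Ubxn10 overlaps Pla2g2c. Signals of Pla2g2a (4.61 to 5.81) and Ubxn10 (5.46 to 6.14) were within the background range in every array. Genes without a named probe set here overlap too: the noncoding gene Gm32871 with Pla2g2d, the noncoding gene Gm32930 and the pseudogene Gm25280 with Pla2g5, and a noncoding gene each with Pla2g2c and Pla2g10. Whether the probes of these members also read them was not tested.

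Markers of cells known to make these enzymes were examined beside them. The macrophage and dendritic list had 9 of 10 measured genes higher in mutants, with list means of 9.51 to 9.64 log2 units in controls and 9.47 to 10.02 in mutants. Its largest positive change was that of the scavenger receptor gene Cd163 (0.91, limma adjusted p = 0.0795), its lowest that of the class II gene H2-Ab1 (-0.66, limma adjusted p = 0.648), and Adgre1 and Csf1r had changes of 0.15 and 0.52. Of the list, Adgre1, Cd163 and Itgax had both group means within the background range. The lymphocyte and lymph node list, with 7 of 10 genes higher and 7 of 10 in the background range in both groups, had means of 5.29 to 5.36 in controls and 5.37 to 5.61 in mutants. Median changes of these lists were 0.26 and 0.17. With the macrophage list mean of each array as a covariate, the Pla2g2d change was -1.47 (SE 0.25, limma adjusted p = 0.263) and that of Pla2g2f was -1.75 (SE 0.27, limma adjusted p = 0.218).

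Epidermal markers, relevant to Pla2g2f, were within the background range in both groups for 8 of 8 genes, among them Krt5 and Krt14, with list means of 3.804 to 3.96 in controls and 3.84 to 4.13 in mutants. Adipocyte markers, relevant to Pla2g5 and Pla2g2e, were higher in mutants for 10 of 10 genes, but list means overlapped, at 8.48, 10.11 and 11.34 in controls and 12.71, 10.45 and 9.79 in mutants. Control 3, the control with the highest adipocyte mean, had the lowest Pla2g5 signal of all 6 arrays, and mutant 1, with the highest adipocyte mean of all, had the highest Pla2g5 signal. For Pla2g2f, controls 1 to 3 fell from 11.08 to 10.64 and 10.55 as their adipocyte means rose, and mutant 1 was the lowest array (8.66). Mutant 3, with the lowest adipocyte mean of the mutants, was at 9.03, below mutant 2 at 9.23. With the adipocyte mean as a covariate the log2 change was 1.19 (SE 0.37, limma adjusted p = 0.457) for Pla2g5, -1.61 (SE 0.17, limma adjusted p = 0.0653) for Pla2g2f and -1.46 (SE 0.22, limma adjusted p = 0.135) for Pla2g2d. Endothelial list means were 11.82 to 12.08 in controls and 12.40 to 12.47 in mutants, with groups apart, and fibroblast means 10.81 to 11.34 and 11.24 to 12.12. The part of endothelial and fibroblast content in the Pla2g5 value was not tested. Pancreas genes, relevant to Pla2g1b, were in the background range in both groups for 7 of 8, all but Cpb1, and kidney genes for 8 of 8. Cortex and medulla markers were lower in mutants for 7 of 9 and 5 of 5 genes, with median changes of -0.09 and -0.32 and 0 past the threshold.

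Patterns like those of the lower enzymes were sought over the 6 arrays by the Euclidean distance between log2 profiles, each centred on its own mean. The distance takes in the fall for which both enzymes were chosen. Genes with a fall of similar size therefore lie near, and nearness shows no shared regulation. For Pla2g2f the nearest named genes were Tesc, a calcium-binding protein (distance 0.51 log2 units), the choline kinase gene Chka (0.71), Ecrg4, the augurin precursor (0.75), Grpr, the receptor of gastrin-releasing peptide (0.77), and the carboxypeptidase gene Cpb1 (0.85). For Pla2g2d they were Sphkap, an anchor of protein kinase A (0.36), Chka (0.40), Cib4 (0.50), Adam23 (0.56) and Nr0b1, a nuclear receptor that opposes NR5A1 (0.56). Mutant means of Grpr (6.65), Sphkap (6.12) and Cib4 (6.405) lay within the background range. Whether background limited the falls of these genes was not tested. A flat profile would lie 2.26 from Pla2g2f and 1.80 from Pla2g2d. Pla2g2f and Pla2g2d lay 0.97 apart, which made Pla2g2d number 14 in order of nearness to Pla2g2f, and Pla2g2f number 62 in order of nearness to Pla2g2d. Chka is near both, with signals of 12.22 to 12.47 in controls and 10.85 to 10.96 in mutants.

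Genes that act beside or after these enzymes were examined as 4 lists. Of 70 listed genes 63 were measured, with 35 log2 changes above 0 and 28 below and a median of 0.13. Past the threshold 0 rose and 0 fell, while 15 of 63 had an unadjusted p under 0.05, beside 10.4% of all probe sets. Groups did not overlap for 9 higher and 6 lower genes of the 63, beside 8% and 8.36% of all probe sets. In 32 of the 63 both group means were in the background range.

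Other phospholipase A2 genes, 18 measured, had a median change of -0.05, with 8 above 0 and 10 below. The cytosolic enzyme gene Pla2g4a, which releases arachidonic acid inside the cell, measured 6.86, 7.31 and 6.80 in controls and 7.69, 7.62 and 7.30 in mutants, a change of 0.54 (SE 0.19, limma adjusted p = 0.386). Its groups overlapped slightly, since mutant 3 lay below control 2. The secreted relative Pla2g3 was at 3.98 to 4.25 in every array, within the background range. The calcium-independent enzyme gene Pla2g6 was lower in every mutant than in any control, with a change of -0.30 (SE 0.16, limma adjusted p = 0.574).

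Eicosanoid synthesis genes, 17 measured, had 12 changes above 0 and a median of 0.19. Ptges, the inducible prostaglandin E synthase, measured 9.32, 9.47 and 9.23 in controls and 11.07, 10.86 and 10.15 in mutants. Its groups were apart, with a change of 1.35 (SE 0.24, limma adjusted p = 0.0989), and it passed with a trend and robust variance model and without mutant 3. The inducible cyclooxygenase gene Ptgs2, a step before it, had the lowest change of the list, -1.21 (SE 0.51, limma adjusted p = 0.465). Its groups overlapped, with 10.57, 11.03 and 9.11 in controls and 9.14, 8.29 and 9.66 in mutants. Aloxe3, an epidermal lipoxygenase, had a change of 0.66 (SE 0.18, limma adjusted p = 0.278) with both means in the background range.

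Receptors of lipid mediators, 18 measured, had 13 changes above 0 and a median of 0.20, and 13 of 18 were in the background range in both groups. The prostaglandin E receptor gene Ptger2 was among these, with a change of 1.08 (SE 0.25, limma adjusted p = 0.191). The lysophosphatidic acid receptor genes Lpar1, Lpar4 and Lpar6 were above it and higher in every mutant than in any control. Their changes were 0.84 (SE 0.20), 0.45 (SE 0.13) and 0.60 (SE 0.20), with limma adjusted p from 0.193 to 0.358. Lpar3, dim in both groups, had a change of -0.65 (SE 0.20, limma adjusted p = 0.33).

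Genes that handle lysophospholipids, 10 measured, had 2 changes above 0 and 8 below, with a median of -0.18. Groups did not overlap for 1 higher and 3 lower genes of this list, beside 8% and 8.36% of all probe sets. Lpcat2, which reacylates lysophospholipids and makes platelet-activating factor, measured 6.71, 6.72 and 6.71 in controls and 7.66, 7.94 and 7.47 in mutants. Its change of 0.98 (SE 0.16, limma adjusted p = 0.0795) had the smallest p of the 63 genes, from a control mean within the background range, and passed with a trend and robust variance model and without dim probe sets. Acsl4 was bright, at 15.71, 15.81 and 15.78 in controls and 15.11, 15.23 and 15.64 in mutants. It was lower in every mutant than in any control, with a change of -0.44 (SE 0.17, limma adjusted p = 0.445).

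**Figure D3:**
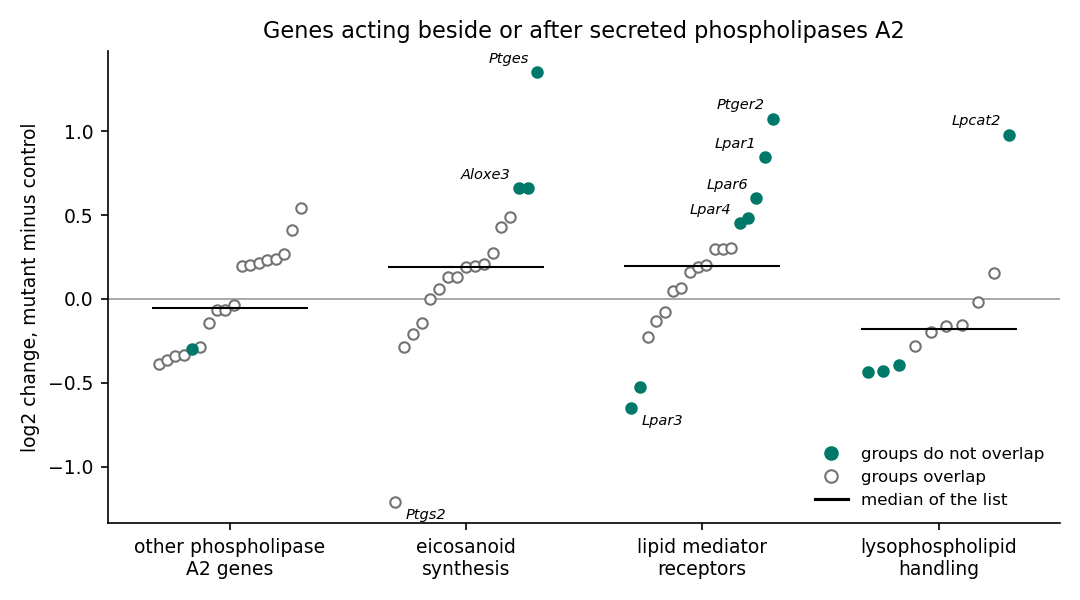
Log2 change, mutant minus control (vertical axis), of the 63 measured genes of 4 lists, each point 1 gene, filled where the groups do not overlap, with the list median as a line. Medians lie at -0.05, 0.19, 0.20 and -0.18 from left to right, and Ptges (1.35) and Ptgs2 (-1.21) are the extremes.

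**Figure D4:**
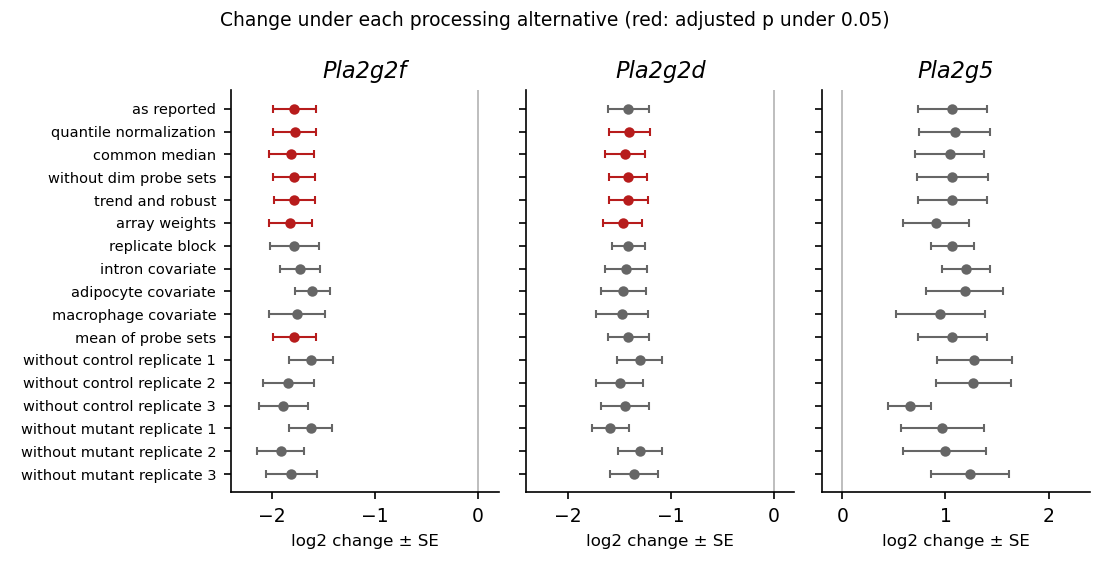
Log2 change ± SE (horizontal axis) of Pla2g2f, Pla2g2d and Pla2g5 as reported and under each of 16 alternatives (vertical axis), in red where the limma adjusted p was under 0.05. Pla2g2f stays between -1.91 and -1.61, Pla2g2d between -1.58 and -1.30, and Pla2g5 between 0.65 and 1.28 with no red point.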

How the data were processed

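Whole adrenal glands of 3 control and 3 mutant mice were grouped by the sample descriptions in the labels. The table deposited by the authors holds 1 log2 signal per probe set and animal, made with Transcriptome Analysis Console 4.0 per the submitters' processing notes. How background was corrected, how arrays were normalized and which genome build was used is not stated in these sources. If arrays were forced to 1 distribution, a shift common to most genes would not be seen.

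After removal of 6640 control probe sets, 22206 remained. Of these, 19572 had 1 gene symbol in the platform annotation, and the other 2634 had none or several, which were not counted apart. The difference between mutant and control was estimated in limma 3.58.1 (R 4.3.3; lmFit, eBayes) over 6 arrays, with two-sided p-values adjusted by Benjamini-Hochberg over all probe sets and a threshold of 0.05. The number of animals limits the precision. The procedure was tested on simulated data.

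Members, gene lists, tests and alternatives were chosen with earlier results of these data known. Named genes were the members, the neighbours, the 8 pathway genes of smallest unadjusted p, and the 5 nearest profiles for Pla2g2f and Pla2g2d. The first 2 measured markers were named for the macrophage and epidermis lists only. Star, Cyp11b1 and Th stood for cortex and medulla. Pla2g4a, Pla2g3, Pla2g6, Ptgs2, Acsl4, Cd163, H2-Ab1 and Itgax were named after their values were seen. RefSeq tables of GRCm38.p6 gave gene order and promoters. Marker lists covered cortex, medulla, macrophage and dendritic, lymphocyte, epidermis, adipocyte, kidney, pancreas, endothelial and fibroblast genes.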

Additional observations from a re-analysis of the deposited data

How the results depend on the processing

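Every alternative kept the sign of the Pla2g2f, Pla2g2d and Pla2g5 changes. The 6 dim members were removed by the filter on dim probe sets, which left 15 alternatives for each. Pla2g12a and Pla2g12b kept their sign under all 15, whereas Pla2g10, Pla2g1b, Pla2g2c and Pla2g2e crossed 0 under some. The count of probe sets past the threshold, 16 as reported, was 38 with quantile normalization, 32 with arrays shifted to a common median, 92 without dim probe sets, 175 with a trend and robust variance model, 48 with array weights, 108 at an adjusted p under 0.1, 8 with the intron covariate, 2 with the adipocyte covariate, 4 with the macrophage covariate, and 1 to 15 with each animal left out. Of the members, Pla2g2f alone passed as reported. The count was 2, with Pla2g2d added, under quantile normalization, the common median, the filter on dim probe sets, the trend and robust model, array weights and the 0.1 threshold. It was 0 with the intron, adipocyte and macrophage covariates and from 0 to 0 with each animal left out. The labels give both groups the same replicate numbers. Deviations of same-numbered animals correlated at -0.09, 0.08 and -0.07, and those of other pairs from -0.10 to 0.16. These numbers were therefore not taken to pair the animals, but with 3 animals per group such values cannot exclude a pairing. With the replicate block 1 probe set and 0 members passed (Pla2g2f -1.78, limma adjusted p = 0.127).

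The members' median change lay between -0.02 and 0.12 with each animal left out. That of the pathway genes, 0.13, was 0.103 with the common median, 0.0767 with array weights, 0.0401 with the adipocyte covariate and 0.0858 with the macrophage covariate, and 0.0344 to 0.106 with each animal left out. That of the neighbouring genes, -0.04, lay between -0.128 and 0.0649 with each animal left out. The cause of these shifts was not tested. Signal over background limits the 6 dim members and 7 of the 11 neighbours.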
